A study of Homo sapiens with 6 samples.

Results

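IGFBP2, IGFBP3 and IGFBP7 encode secreted proteins that bind insulin-like growth factors (IGFs). These 3 genes, of 6641 in the deposited table, were selected by their FPKM in these same 6 libraries, in the comparison of HCC827_Er with HCC827, so that comparison is given for them as a description, with no test. RNA was sequenced from 3 libraries labelled HCC827_Er and 3 labelled HCC827. HCC827 is an established human lung adenocarcinoma line with an activating mutation of the epidermal growth factor receptor, EGFR. The title calls the pair parental and resistant, which makes HCC827_Er the resistant line, and the series asks how histone crotonylation, a modification of lysines, bears on resistance to EGFR inhibitors. The labels name no drug exposure, clone or passage for either line, and nothing says that its 3 libraries stem from separate cultures, so the tests below rest on a spread that may be technical.

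IGFs act through the IGF1 receptor, a tyrosine kinase that signals through adaptor proteins to PI3K and AKT. Binding proteins hold IGFs away from this receptor, prolong their life in the circulation and, once cut by proteases, release them. IGFBP3 is the main carrier of IGFs in serum, where it forms a complex with the acid-labile subunit. IGFBP2 binds IGF2 tightly and carries an integrin-binding motif. IGFBP7 binds IGFs with low affinity and is best known as a matrix protein of vessels and stroma. In tumours each of them has been described both with and against growth, depending on the tissue.

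The table holds FPKM, which corrects fragment numbers for transcript length and library size, so levels of different genes can be set side by side but depth is unknown. Summed FPKM of the listed genes ranged from 184633 to 190415 in HCC827_Er and from 222927 to 224211 in HCC827. Across genes, which are not independent, log2(FPKM + 1) correlated at 0.991 to 0.994 between replicates and at 0.806 to 0.809 between the lines. The lines did not overlap for 96.1% of all listed genes, so almost every gene of this table, like these 3, separated the lines before any test was run. Whether the table was limited to genes that differ between the lines is not given in the sources used here. Every rank, share of summed FPKM and share of genes called therefore refers to the listed genes, not to the transcriptome. Genes with at least 1 FPKM in 3 of the 6 libraries were tested with limma across the whole table. A gene was called at a Benjamini-Hochberg adjusted p under 0.05 when log2(FPKM + 1) also differed by 1 or more. That minimum is 2-fold in FPKM + 1, so a low gene needs a larger ratio of FPKM. By this rule 24.7% of the 5276 genes tested were called higher in HCC827_Er and 19.7% lower.

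Of 15 lung epithelial and adenocarcinoma markers 10 were listed and tested; 8 were called higher in HCC827_Er and 1, SCGB3A2, lower, with a median log2 difference of 1.97. Their summed level, 2884 to 2987 FPKM in HCC827_Er and 2247 to 2339 FPKM in HCC827, was mostly that of the keratins KRT8 and KRT19. The lung transcription factor NKX2-1 rose to 65.7 ± 4.65 FPKM in HCC827_Er, against 5.93 ± 0.898 FPKM in HCC827, and the adhesion gene EPCAM to 297 ± 26.4 FPKM in HCC827_Er, against 30.1 ± 0.429 FPKM in HCC827. KRT8 stood at 1025 ± 31.7 FPKM in HCC827_Er and 1744 ± 45.9 FPKM in HCC827, not called as deposited but called lower with the libraries rescaled by median ratios. SFTPA1, SFTPA2 and SFTPB, surfactant genes, met the minimum of 1 FPKM through HCC827_Er alone, which left them no other direction. SFTPA1 was at 0 in all HCC827 libraries.

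The starts of IGFBP2 and IGFBP3, which lie on different chromosomes, are shown because promoter windows were available for them. None was available for IGFBP7, so no lower gene can be set beside these higher ones. RefSeq gives 250 bases upstream of each start on GRCh38.p14, chr2:216633170-216633419 on the plus strand for IGFBP2 and chr7:45921273-45921522 on the minus strand for IGFBP3, both written 5′ to 3′ along the gene. Capitals mark the GC box GGGCGG or its reverse complement, and a run of alternating T and A, TATATA.
IGFBP2: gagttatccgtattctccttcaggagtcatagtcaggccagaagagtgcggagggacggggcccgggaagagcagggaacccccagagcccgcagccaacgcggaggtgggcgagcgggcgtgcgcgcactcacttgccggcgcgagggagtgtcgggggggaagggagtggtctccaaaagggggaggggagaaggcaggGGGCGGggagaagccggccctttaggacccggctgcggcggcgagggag
IGFBP3: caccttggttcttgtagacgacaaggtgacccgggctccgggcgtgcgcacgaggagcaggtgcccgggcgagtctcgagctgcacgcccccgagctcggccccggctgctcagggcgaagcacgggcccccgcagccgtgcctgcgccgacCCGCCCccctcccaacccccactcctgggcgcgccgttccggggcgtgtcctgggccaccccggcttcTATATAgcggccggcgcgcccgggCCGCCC
The IGFBP3 window held the alternating run with its first base 30 bases before the start, and GC boxes that began 98 and 6 bases before it. The IGFBP2 window held 1 GC box, 49 bases before the start, and no such run. The TATA box TATAAA and the box named for its letters CCAAT, searched on both strands like the others, were in neither window. Of 34943 RefSeq promoter windows of this length, 3.74% held the alternating run, 42.5% a GC box, 10.8% the TATA box and 32.0% the other box. G and C made up 76.0% of the IGFBP3 window and 69.2% of the IGFBP2 window, against a median of 58.0% over all windows, and a C followed by a G occurred 32 and 22 times, against a median of 11. IGFBP2 has 3 RefSeq starts, of which the one shown is the farther upstream of those that match a GENCODE coding transcript. Of 5 GENCODE coding starts of IGFBP3, 3 lie near the one shown. Both windows lie inside the GENCODE gene intervals given below, and distances between genes were measured from the 5′ ends of those intervals.

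IGFBP3 (ENSG00000146674; GRCh38 chr7:45912245-45921874, minus strand, protein-coding) was the most abundant of the 3 in HCC827_Er. It stood at 952, 981 and 1019 FPKM in HCC827_Er libraries, against 40.9, 39.3 and 37.0 FPKM in HCC827 libraries. Every HCC827_Er library lay far above every HCC827 library, and replicates of a line were close. The means were 984 ± 33.8 FPKM in HCC827_Er and 39.0 ± 1.97 FPKM in HCC827 (SD, n = 3 each), a ratio of 25.2, and log2(FPKM + 1) differed by 4.62. By mean FPKM IGFBP3 ranked 17 among the 6641 genes in HCC827_Er and 859 in HCC827. It made up 0.522% of the summed FPKM of the listed genes in HCC827_Er and 0.0174% in HCC827.

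IGFBP2 (ENSG00000115457; GRCh38 chr2:216632828-216664436, plus strand, protein-coding) was near the bottom of the scale in HCC827. It stood at 35.2, 32.3 and 31.1 FPKM in HCC827_Er libraries, against 0.090, 0.33 and 0.24 FPKM in HCC827 libraries. The HCC827 libraries differed among themselves by a larger factor than the HCC827_Er libraries did, with a coefficient of variation of 6.51% in HCC827_Er and 55.1% in HCC827. The means were 32.9 ± 2.14 FPKM in HCC827_Er and 0.22 ± 0.12 FPKM in HCC827 (SD, n = 3 each), and log2(FPKM + 1) differed by 4.80. The ratio of the means, 149, rests on HCC827 values under 1 FPKM. The difference depended on the constant added before the logarithm, at 6.76 with 0.1 and 2.86 with 5. IGFBP2 met the minimum used for testing, 1 FPKM in 3 of the 6 libraries, through HCC827_Er alone.

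IGFBP7 (ENSG00000163453; GRCh38 chr4:57030773-57110385, minus strand, protein-coding) ran the other way. It stood at 0.92, 1.44 and 1.26 FPKM in HCC827_Er libraries, against 117, 118 and 97.9 FPKM in HCC827 libraries. All 3 HCC827_Er libraries were low, and the lowest HCC827 library, replicate 3, was still far above them. The means were 1.21 ± 0.264 FPKM in HCC827_Er and 111 ± 11.2 FPKM in HCC827 (SD, n = 3 each), with the mean of HCC827 91.8 times that of HCC827_Er and a log2 difference of -5.66. By mean FPKM it ranked 4773 in HCC827_Er and 324 in HCC827. Among the log2 differences of the 5276 genes tested across the table, IGFBP7 ranked 11 from the most negative end, and IGFBP2 and IGFBP3 ranked 20 and 24 from the most positive end.

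**Figure D1:**
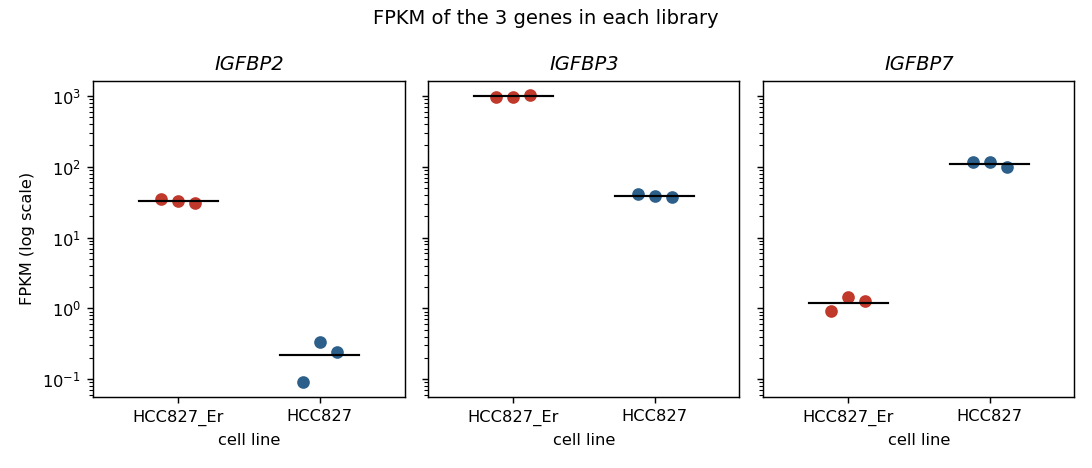
FPKM of IGFBP2, IGFBP3 and IGFBP7 (log axis) in each of the 3 HCC827_Er libraries (red) and 3 HCC827 libraries (blue); horizontal lines are the means. HCC827_Er lies above HCC827 for IGFBP2 and IGFBP3 and below it for IGFBP7, with no overlap.

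IGFBP7 is a common transcript of endothelial cells and fibroblasts, so their markers are given beside it; in bulk RNA, fewer cells of a type and less RNA per cell cannot be told apart. Of 12 endothelial markers 2 were listed, with a summed level of 6.83 to 7.78 FPKM in HCC827_Er and 8.48 to 9.57 FPKM in HCC827, nearly all of it EGFL7. EGFL7 differed the same way as IGFBP7, at 6.61 ± 0.386 FPKM in HCC827_Er and 9.07 ± 0.551 FPKM in HCC827, and was not called. CDH5, the cadherin of endothelial junctions, went the other way and was too low to be tested. It stood at 0.61 ± 0.123 FPKM in HCC827_Er and at 0 in all 3 HCC827 libraries. Of 11 fibroblast markers 3 were listed, summing to 9.33 to 11.5 FPKM in HCC827_Er and 2.46 to 3.35 FPKM in HCC827, and they did not move together. COL1A1, a collagen, rose to 10.1 ± 0.932 FPKM in HCC827_Er, against 0.75 ± 0.243 FPKM in HCC827. The other 2 differed the same way as IGFBP7. LUM stood at 0.53 ± 0.372 FPKM in HCC827_Er and 1.81 ± 0.661 FPKM in HCC827. It was not called as deposited but called lower with median ratios and with quantile normalization. LUM met the minimum of 1 FPKM through HCC827 alone, which left it no other direction. COL3A1 was at 0 in every HCC827_Er library and at 0.283 ± 0.0493 FPKM in HCC827. Of 12 leukocyte markers 6 were listed, with a sum of 131 to 144 FPKM in HCC827_Er and 173 to 179 FPKM in HCC827, most of it CD68, a lysosomal protein that is not restricted to leukocytes. Of the 5 tested, CD68 was not called and the other 4 were called higher in HCC827_Er. CSF1R averaged 5.45 FPKM in HCC827_Er and 0.23 FPKM in HCC827, CORO1A 7.66 FPKM in HCC827_Er and 0.703 FPKM in HCC827, LAPTM5 4.49 FPKM in HCC827_Er and 0.903 FPKM in HCC827, and CD14 1.73 FPKM in HCC827_Er and 0.207 FPKM in HCC827. These 4 met the minimum through HCC827_Er alone, so higher was the one direction they could take. With a pseudocount of 5 CORO1A alone of them was still called, and CD14 was also not called after quantile normalization (0.96). The part of these other markers in the differences was not tested.

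Among the binding proteins listed here the dominant member differed between the lines. IGFBP5 was not analysed here, so shares refer to these genes and not to the whole family. Besides the 3 genes, IGFBP1, IGFBP4 and IGFBP6 were listed. Together these 6 binding proteins summed to 1040.2 ± 30.0 FPKM in HCC827_Er and 244 ± 17.0 FPKM in HCC827 (SD, n = 3 each), a ratio of 4.27. IGFBP3 made up 94.0%, 94.6% and 95.1% of that sum in HCC827_Er libraries, against 16.0%, 15.7% and 16.5% in HCC827 libraries. IGFBP7 made up 0.116% on average in HCC827_Er and 45.4% in HCC827, and IGFBP2 3.17% in HCC827_Er and 0.0913% in HCC827. In HCC827 IGFBP7 and IGFBP1 thus led with IGFBP3 behind them, whereas in HCC827_Er IGFBP3 stood far ahead and IGFBP2 came next.

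The order of levels by FPKM in HCC827_Er was IGFBP3, IGFBP2, IGFBP1, IGFBP4, IGFBP6 and IGFBP7, and the library ranges of these neighbours in the order did not overlap. In HCC827 it was IGFBP7, IGFBP1, IGFBP3, IGFBP6, IGFBP4 and IGFBP2, again with ranges that did not overlap. Ratios of genes within a library do not depend on how libraries are scaled to each other. IGFBP3 exceeded IGFBP7 1034, 681 and 809 times in HCC827_Er libraries, against 0.350, 0.333 and 0.378 times in HCC827 libraries.

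**Figure D2:**
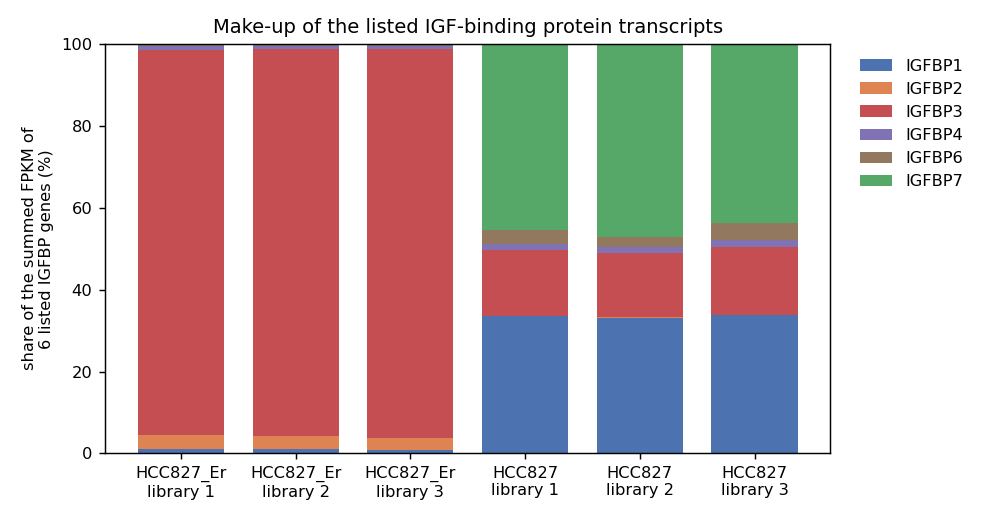
Share (%) of the summed FPKM of 6 listed IGF-binding protein genes that each gene holds, in the 3 HCC827_Er libraries (left) and the 3 HCC827 libraries (right). IGFBP3 fills 94.0% to 95.1% of the HCC827_Er bars, while IGFBP7 and IGFBP1 fill most of the HCC827 bars.

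The other genes of the IGF pathway were read from the same limma test, with its background of 24.7% of genes called higher and 19.7% lower. With the libraries rescaled by median ratios the 1304 higher and 1041 lower genes became 902 and 1671, and with rescaling to equal sums 1825 and 794. The median log2 difference of all genes tested was 0.43, and these rescalings moved it by -0.25 and 0.18. Of 138 names in 7 pathway lists 66 were listed and 58 tested, of which 18 were called higher (31.0%) and 14 lower (24.1%), with a median log2 difference of 0.60. Of those called higher, 6 (ADAM28, DEPTOR, FOXO6, MMP9, SESN3 and TMPRSS2) met the minimum of 1 FPKM through HCC827_Er alone, and of those called lower, 3 (ADAMTS1, HTRA1 and PAPPA) through HCC827 alone; the minimum left these 9 no other direction.

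Among the other IGF-binding and IGFBP-related proteins, 5 of 7 tested genes fell in HCC827_Er and none was called higher as deposited; the median log2 difference of the 7 was -1.62. IGFBP1, an IGF-binding protein known from liver and decidua, stood at 11.4, 11.9 and 9.39 FPKM in HCC827_Er libraries, against 86.2, 82.9 and 75.6 FPKM in HCC827 libraries. It thus fell to 10.9 ± 1.34 FPKM in HCC827_Er, against 81.6 ± 5.41 FPKM in HCC827 (log2 difference -2.80, SE 0.097, limma adjusted p = 2.21e-08). IGFBP6, which prefers IGF2, had 3.31 ± 0.540 FPKM in HCC827_Er and 8.05 ± 1.61 FPKM in HCC827, a log2 difference of -1.06. Its call was lost without HCC827_Er replicate 2 (-0.99), without HCC827 replicate 3 (-0.96), with equal sums (-0.86), with a pseudocount of 5 (-0.65) and in limma's test against a log2 difference of 1. IGFBP4, which is cut by the protease PAPPA, stood at 8.06 ± 0.709 FPKM in HCC827_Er and 3.93 ± 0.312 FPKM in HCC827. Its log2 difference of 0.88 lay under the minimum, and it was called higher with equal sums.

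The related matrix proteins CCN1 and CCN2, outputs of YAP, share the N-terminal domain of the binding proteins. CCN1 fell to 250.5 ± 2.23 FPKM in HCC827_Er, against 774 ± 17.4 FPKM in HCC827, and CCN2 to 1.46 ± 0.401 FPKM in HCC827_Er, against 34.9 ± 1.42 FPKM in HCC827. HTRA1, a serine protease with such a domain, fell to 0.513 ± 0.127 FPKM in HCC827_Er, against 4.51 ± 0.0656 FPKM in HCC827. Its log2 difference of -1.87 was -0.79 and not called with a pseudocount of 5. HTRA1 met the minimum of 1 FPKM through HCC827 alone, which left it no other direction. CRIM1, a membrane protein with such a domain, stood at 17.8 ± 1.74 FPKM in HCC827_Er and 27.2 ± 1.82 FPKM in HCC827 (log2 difference -0.59) and was not called. IGFBPL1 was at 0.14 FPKM or less in every library and was not tested.

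**Figure D3:**
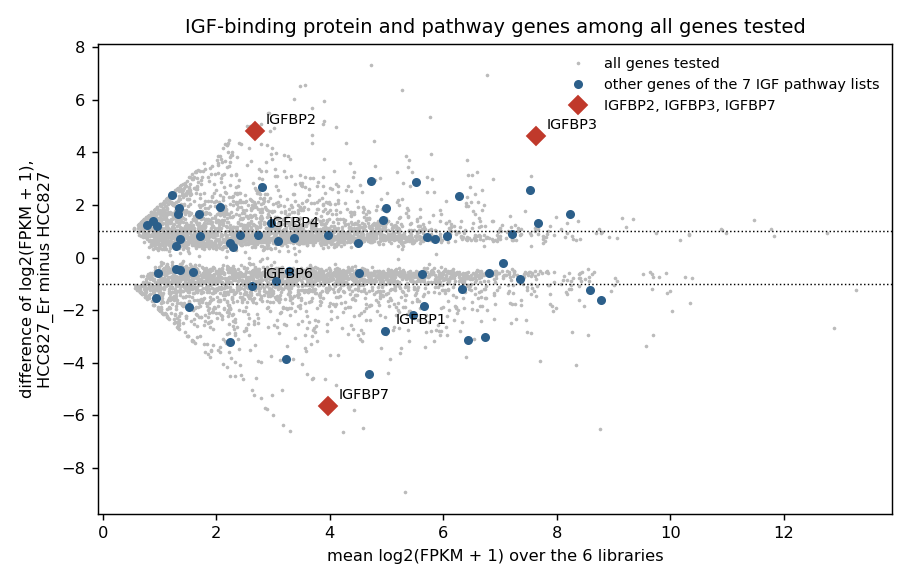
Difference of log2(FPKM + 1), HCC827_Er minus HCC827, against the mean log2(FPKM + 1) over the 6 libraries for 5276 genes tested (grey), 58 other genes of the pathway lists (blue) and the 3 genes (red diamonds); dotted lines mark a difference of 1 either way. IGFBP2 and IGFBP3 lie at 4.80 and 4.62 and IGFBP7 at -5.66, and few genes lie close to 0.

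Ligands and receptors were sparsely covered. IGF1, a ligand of the IGF1 receptor, was listed at 0.27, 0.43 and 1.88 FPKM in HCC827_Er libraries and at 0 in all 3 HCC827 libraries, and was too low to be tested. RLN2, a relaxin of the insulin superfamily with receptors of its own, rose to 4.83 ± 0.941 FPKM in HCC827_Er, against 0.833 ± 0.379 FPKM in HCC827 (log2 difference 1.68, limma adjusted p = 2.18e-05). With a pseudocount of 5 the difference of RLN2 was 0.75 and it was not called. IGF2, IGF1R, IGF2R, INSR and IRS1 were not analysed here, so nothing can be said of the levels of the main receptors.

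Of 5 tested adaptors and regulators of the receptors, DOK4 fell and the other 4 were not called. DOK4, a docking protein of receptor tyrosine kinases, fell to 25.7 ± 2.23 FPKM in HCC827_Er, against 95.7 ± 5.31 FPKM in HCC827 (log2 difference -1.86, limma adjusted p = 7.38e-08). IRS2, the insulin receptor substrate that links the receptors to PI3K, stood at 1.497 ± 0.186 FPKM in HCC827_Er and 2.65 ± 0.197 FPKM in HCC827. GRB14, an inhibitory adaptor of the insulin receptor, stood at 12.5 ± 1.04 FPKM in HCC827_Er and 7.003 ± 0.231 FPKM in HCC827. SOCS2, a suppressor of growth hormone signalling, had 4.75 ± 0.755 FPKM in HCC827_Er and 3.10 ± 1.49 FPKM in HCC827, a difference within the spread of its libraries (limma adjusted p = 0.0671). The ubiquitin ligase NEDD4 stood at 123 ± 7.41 FPKM in HCC827_Er and 141 ± 2.63 FPKM in HCC827. ENPP1, which inhibits the insulin receptor, was too low to be tested.

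Proteases that can cut IGF-binding proteins, and their inhibitors, moved both ways, with 7 of 22 tested called higher and 8 lower in HCC827_Er (6 higher and 8 lower with median ratios, 10 and 6 with equal sums). Their median log2 difference was 0.12, and of all genes tested 24.7% were called higher and 19.7% lower. Of the called genes, ADAM28, MMP9 and TMPRSS2 met the minimum of 1 FPKM through HCC827_Er alone, and ADAMTS1 and PAPPA through HCC827 alone. That left them no other direction. The most negative difference among these 22 was that of SERPINE2, a secreted inhibitor of serine proteases. SERPINE2 fell to 4.62 ± 0.4997 FPKM in HCC827_Er, against 119 ± 5.62 FPKM in HCC827 (log2 difference -4.42, limma adjusted p = 1.41e-09). ADAMTS1, a matrix metalloprotease, fell to 0.563 ± 0.0503 FPKM in HCC827_Er, against 13.5 ± 0.681 FPKM in HCC827. The complement proteases C1S and C1R, of which C1S is known to cut IGFBP5, fell to 28.01 ± 0.801 and 36.2 ± 2.19 FPKM in HCC827_Er, against 256 ± 4.86 and 302 ± 6.56 FPKM in HCC827.

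In the other direction, ST14, which encodes the membrane protease matriptase, rose to 124 ± 9.79 FPKM in HCC827_Er, against 15.9 ± 0.854 FPKM in HCC827 (log2 difference 2.89, limma adjusted p = 5.44e-09). TMPRSS2, another membrane serine protease, rose to 4.31 ± 0.0351 FPKM in HCC827_Er, against 0.0267 ± 0.0306 FPKM in HCC827 (log2 difference 2.37; 0.89 and not called with a pseudocount of 5). PAPPA, the protease of IGFBP4 and IGFBP5, fell to 0.123 ± 0.0681 FPKM in HCC827_Er, against 2.27 ± 0.102 FPKM in HCC827 (log2 difference -1.54; -0.50 and not called with a pseudocount of 5); it was named after its values were seen. Its inhibitors STC1 and STC2 stood at 20.1 ± 0.816 and 87.9 ± 3.86 FPKM in HCC827_Er. In HCC827 they stood at 10.6 ± 0.0635 and 49.9 ± 3.97 FPKM, so both differed by less than the minimum. Each was called higher with equal sums, and STC2 also with quantile normalization (1.04). They too were named after their values were seen.

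Of 7 tested surface and nuclear partners of the binding proteins, 4 were called higher and none lower. All genes tested gave 24.7% higher and 19.7% lower. With median ratios CAV1 was called lower. FN1, which encodes fibronectin, a matrix partner of IGFBP3, rose to 449 ± 11.6 FPKM in HCC827_Er, against 74.97 ± 3.22 FPKM in HCC827. ITGA5, the alpha chain of the fibronectin receptor and a partner of IGFBP2, rose to 60.1 ± 3.21 FPKM in HCC827_Er, against 15.6 ± 1.18 FPKM in HCC827. LRP1, an endocytic receptor that binds IGFBP3, rose to 11.5 ± 1.011 FPKM in HCC827_Er, against 3.97 ± 0.0907 FPKM in HCC827. SDC1, a heparan sulfate proteoglycan of epithelial cells, rose to 72.5 ± 4.24 FPKM in HCC827_Er, against 8.77 ± 1.74 FPKM in HCC827 (log2 difference 2.92, limma adjusted p = 8.33e-08). The log2 differences of FN1, ITGA5 and LRP1 were 2.57, 1.88 and 1.32, and that of LRP1 was 0.87 and not called with a pseudocount of 5.

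In the PI3K, AKT and FOXO arm 5 of 15 tested genes were called higher and none lower, beside 24.7% and 19.7% of all genes tested. Median ratios gave 5 higher and 1 lower, PHLPP2, and equal sums gave 7 higher. The median log2 difference as deposited was 0.70. DEPTOR, FOXO6 and SESN3 met the minimum of 1 FPKM through HCC827_Er alone, so higher was the one direction they could take. PIK3R3, a regulatory subunit of PI3K, rose to 16.7 ± 0.339 FPKM in HCC827_Er, against 1.76 ± 0.485 FPKM in HCC827 (log2 difference 2.70). DDIT4 and DEPTOR, inhibitors of mTOR, rose to 533 ± 34.7 and 3.90 ± 0.266 FPKM in HCC827_Er, against 168 ± 10.2 and 0.353 ± 0.266 FPKM in HCC827. FOXO6 and SESN3 rose as well, at 2.02 ± 0.634 and 1.68 ± 0.0551 FPKM in HCC827_Er and 0.143 ± 0.0153 and 0.12 ± 0.069 FPKM in HCC827. With a pseudocount of 5 the calls of DEPTOR (0.73), FOXO6 (0.44) and SESN3 (0.38) were lost, and that of FOXO6 was also lost in limma's test against a log2 difference of 1. HMGA2, a chromatin protein that induces the IGF2 mRNA-binding protein IGF2BP2, was the only tested gene of its list and rose to 49.8 ± 1.11 FPKM in HCC827_Er, against 17.7 ± 1.36 FPKM in HCC827.

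**Figure D4:**
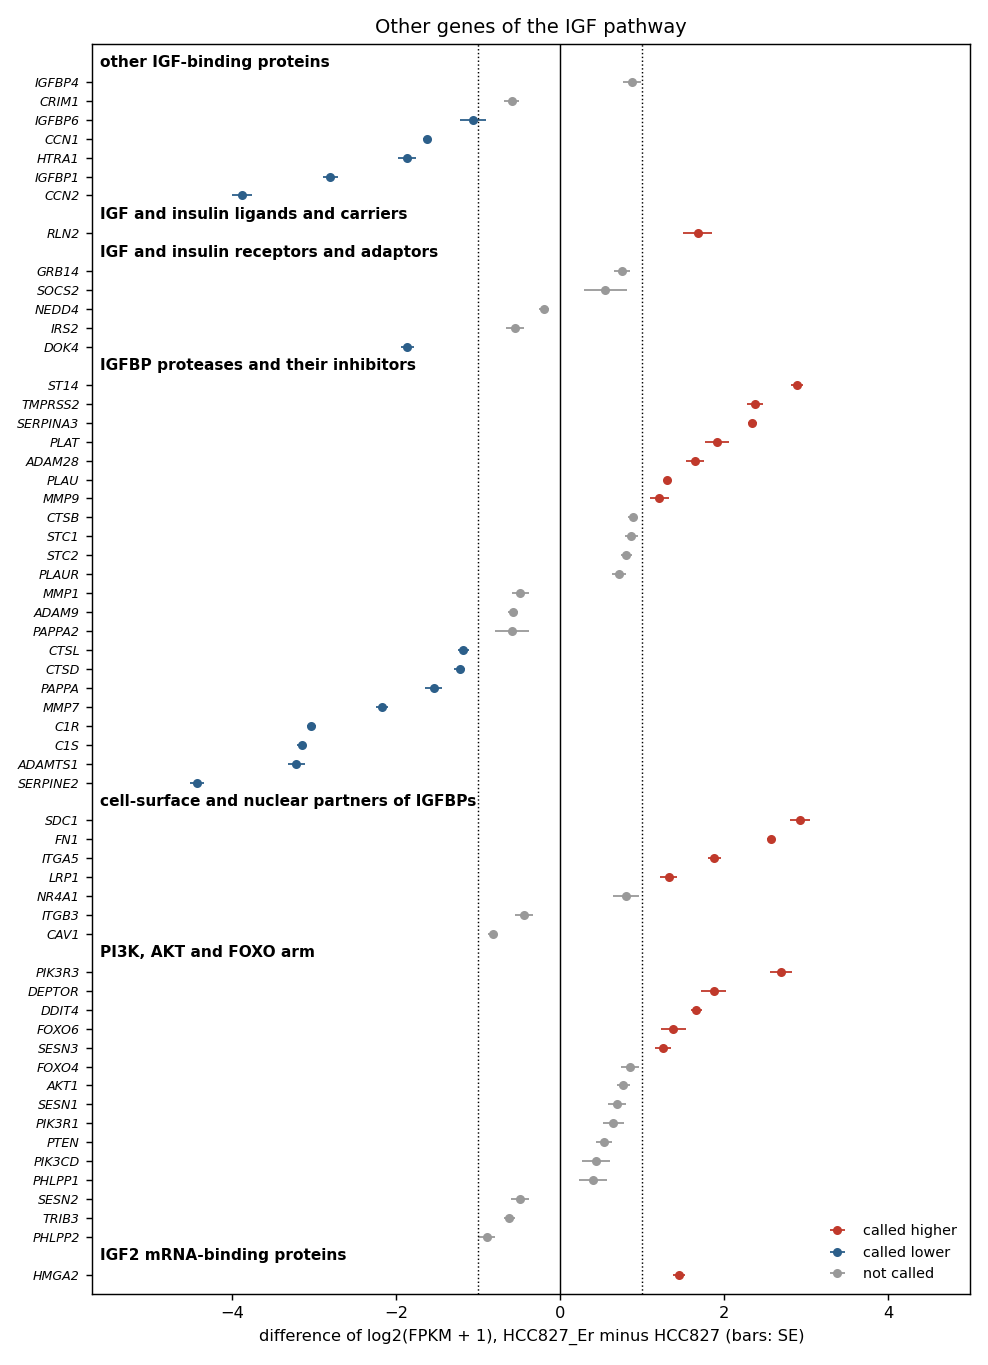
Difference of log2(FPKM + 1), HCC827_Er minus HCC827, with its SE for the 58 tested genes of 7 IGF pathway lists, ordered within each list; red genes were called higher, blue lower and grey not called. The binding proteins other than the 3 genes lie mostly left of 0, while proteases and their inhibitors reach from -4.42 to 2.89.

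IGFBP3 and IGFBP1 lie next to each other on chromosome 7 with their starts 33.5 kb apart and on opposite strands, and they differed in opposite directions. Within a library IGFBP3 exceeded IGFBP1 83.3, 82.3 and 109 times in HCC827_Er, against 0.474, 0.474 and 0.489 times in HCC827. The ratio was above 1 in every HCC827_Er library and below 1 in every HCC827 library. Of all genes tested 24.7% were called higher and 19.7% lower. Within 1 Mb of the start of IGFBP3 4 genes were tested, of which IGFBP1 was called lower and 3 higher. The 3 were MYO1G, a myosin of blood cells, the noncoding gene ENSG00000233539 and the pseudogene EPS15P1. MYO1G rose to 1.66 ± 0.345 FPKM in HCC827_Er, against 0.05 ± 0.0265 FPKM in HCC827, and ENSG00000233539 to 11.0 ± 1.63 FPKM in HCC827_Er, against 2.98 ± 0.205 FPKM in HCC827. EPS15P1 rose to 2.11 ± 0.438 FPKM in HCC827_Er, against 0.0767 ± 0.0451 FPKM in HCC827, and pseudogene reads can be shared with the parent gene. MYO1G and EPS15P1 met the minimum of 1 FPKM through HCC827_Er alone, so higher was the one direction they could take, and neither was called with a pseudocount of 5 (0.40 and 0.48). On the far side the nearest listed gene was the pseudogene TTC4P1, which was too low to be tested.

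Around IGFBP2, 3 genes within 1 Mb were tested. The nearest listed was RPL37A-DT, a divergent transcript beside a ribosomal protein gene, 134 kb away, which fell to 1.597 ± 0.251 FPKM in HCC827_Er, against 4.99 ± 1.12 FPKM in HCC827 (log2 difference -1.19, limma adjusted p = 7.41e-05; -0.59 and not called with a pseudocount of 5). MREG and LINC01963 were not called as deposited, and MREG was called higher with equal sums. On the other side of IGFBP2 the nearest listed gene was TNS1, 1401 kb away. Of the 3 tested genes only MREG had a positive difference as deposited, 0.86, against 4.80 for IGFBP2. Genes of this window that are not listed cannot be judged.

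Within 1 Mb of IGFBP7 the 2 listed genes, SPINK2 and HOPX, met the minimum of 1 FPKM through HCC827_Er alone. That fixed their direction, so their values are given and their test results are left out. SPINK2, a protease inhibitor gene 289 kb away, stood at 1.28, 3.69 and 2.77 FPKM in HCC827_Er libraries, against 0, 0 and 0.18 FPKM in HCC827 libraries. HOPX, a homeobox gene of alveolar type I cells, stood at 1.21, 2.44 and 1.71 FPKM in HCC827_Er libraries and was listed at 0 in all 3 HCC827 libraries. On the other side the nearest listed gene was EPHA5, 8560 kb away and at 0 in all HCC827_Er libraries.

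**Figure D5:**
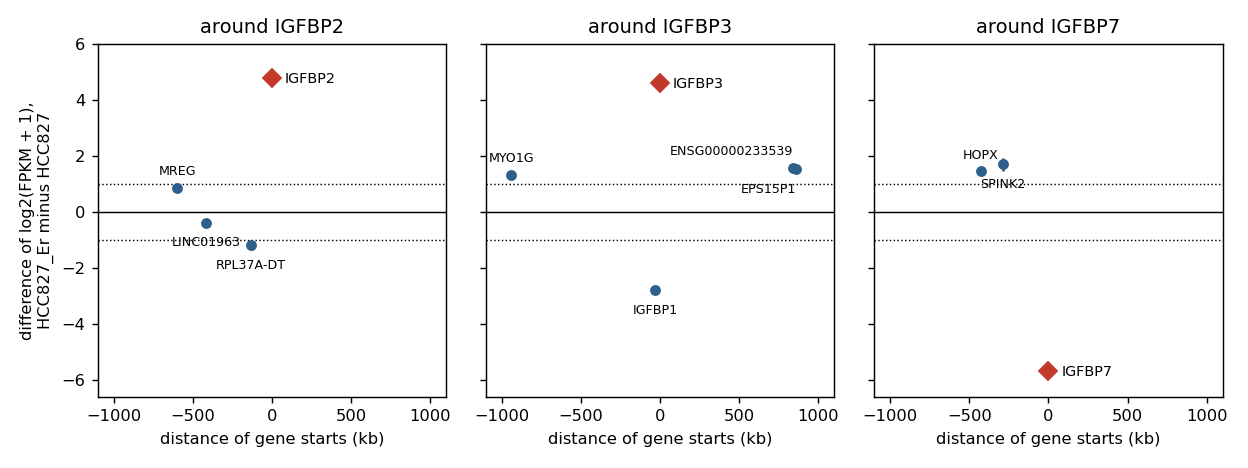
Difference of log2(FPKM + 1), HCC827_Er minus HCC827, of the tested genes within 1 Mb of each of the 3 genes (blue, bars are SE), against the distance between gene starts in kb; red diamonds are IGFBP2, IGFBP3 and IGFBP7. IGFBP1, 33.5 kb from IGFBP3, lies at -2.80 while IGFBP3 lies at 4.62.

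Genes with the most similar values were found by Euclidean distance of log2(FPKM + 1) over the 6 libraries, which weighs level and difference together. Closest to IGFBP2 were KRT16, a keratin of stressed and squamous epithelium, the myeloid receptor gene TREM1 and the adhesion gene CEACAM6, at distances of 0.36, 0.46 and 0.49. KRT16 averaged 33.0 ± 0.940 FPKM in HCC827_Er and 0.237 ± 0.224 FPKM in HCC827. Closest to IGFBP7 were LBP, the lipopolysaccharide-binding protein of liver, the receptor kinase gene FGFR1 and FXYD2, a regulator of the sodium pump, at 1.18, 1.38 and 1.43. LBP averaged 1.89 ± 0.0757 FPKM in HCC827_Er and 158 ± 3.33 FPKM in HCC827. IGFBP3 had no neighbour so near: RPL9, FN1 and CLDN7 were closest at 1.85, 2.53 and 2.75, with log2 differences of 3.12, 2.57 and 2.98 that were all smaller than its own. RPL9 has many processed pseudogenes, so its reads are uncertain.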

How the data were processed

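RNA-seq libraries of HCC827_Er and HCC827 (3 each) were prepared with a TruSeq RNA kit, per the labels. Values are FPKM as the authors deposited them, in 1 table, with no counts; depth and counting error are therefore unknown. The submitters' processing notes name fastp, HISAT2 and StringTie without versions, and GRCh38.p14 and hg19 without roles; the sources used here give neither annotation nor gene filter. Symbols were matched by identifier for 6636 of 6641 genes. Positions came from GENCODE 29 on GRCh38 (6353 genes), which may not be the authors' annotation, and promoter windows from RefSeq.

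FPKM were transformed to log2(FPKM + 1), which understates changes of low genes. Genes with at least 1 FPKM in 3 libraries (5276) were fitted with limma 3.58.1 in R 4.3.3 (cell line as the only term, eBayes with trend, Benjamini-Hochberg adjustment over all 5276). With 3 libraries a line the smallest two-sided exact p is 0.1, so only this model was used. The steps were tested on simulated data. No set test was run.

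The members and the gene lists were chosen with earlier results of these data known. Named genes were the members, the tested genes of 4 lists (binding proteins, ligands, receptors, IGF2 mRNA-binding proteins), up to 6 called genes of each other list, nearest and called neighbours, and the 3 most similar genes per member. Any others were named after their values were seen. Some genes of the lists are not reported here and are left out of the list counts.

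Alternatives were pseudocounts of 0.1 and 5, no minimum or 5 FPKM, 3 rescalings, other limma settings, a replicate block and each library left out.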

Additional observations from a re-analysis of the deposited data

How the results depend on the processing

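IGFBP2 and IGFBP3 were higher and IGFBP7 lower in HCC827_Er in every alternative run for them. These genes were selected on this same contrast, so an unchanged direction adds no support, and the sizes are given as description. The log2 difference of IGFBP2 was 4.80 as deposited, 6.76 and 2.86 with pseudocounts of 0.1 and 5, 4.60 with median ratios and 4.94 with equal sums (libraries rescaled to the geometric mean of their sums). That of IGFBP3 was 4.62 as deposited, 4.49 with a pseudocount of 5, 4.28 with median ratios, 4.87 with equal sums and 4.91 with quantile normalization. That of IGFBP7 was -5.66 as deposited, -6.42 and -4.22 with pseudocounts of 0.1 and 5, -5.93 with median ratios and -5.47 with equal sums. Leaving out each library in turn gave 4.72 to 4.86 for IGFBP2, 4.58 to 4.65 for IGFBP3 and -5.75 to -5.57 for IGFBP7, and 1298 to 1334 genes called higher and 1034 to 1056 lower over the table. Called genes, 1304 higher and 1041 lower as deposited, were 579 and 506 with a pseudocount of 5, 2672 and 2515 with no minimum difference, and 827 and 664 with limma's test against a log2 difference of 1. They were 867 higher with a minimum of 5 FPKM and 1671 lower with median ratios. Pathway genes, 18 higher and 14 lower as deposited, were 9 higher with a pseudocount of 5, 11 higher with a minimum of 5 FPKM, and 32 higher and 25 lower with no minimum difference; without each library in turn they were 18 higher and 13 to 14 lower. Deviations of same-numbered libraries correlated at 0.11, -0.02 and 0.05, and those of differently numbered libraries at -0.09 to 0.04. Libraries numbered 1 and 3 correlated best with their own number in the other line, and those numbered 2 did not. Correlations this weak cannot show whether the shared replicate numbers pair the samples. The replicate block left the differences of IGFBP2, IGFBP3 and IGFBP7 at 4.80, 4.62 and -5.66, as it must with every number in both lines. It could alter calls only through the p-values, and gave 1304 genes higher and 1041 lower, 18 and 14 in the pathway lists. Depth is unknown, so counting error behind the low values of IGFBP2 in HCC827 and IGFBP7 in HCC827_Er cannot be given.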
